A study of Homo sapiens with 18 samples.

Results

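SYDE2, NPR1, MIR200A and B4GALNT1 were 4 genes at which H3K4me3 and H3K27me3 were both listed as lower in V16D cells that overexpressed the long non-coding RNA H19. They were chosen from the authors' own comparison of the same libraries: each gene had a differential site of each mark, the sites of the 2 marks shared bases, and the authors' mean concentration of both marks was lower in V16D/H19 than in V16D/CTL. The tables of differential sites held 2997 sites of both marks together (1857 for H3K4me3 and 1140 for H3K27me3), and 63 genes had overlapping sites of both marks under the same symbol. Of these 63 genes, 8 were lower in both marks, and the 4 genes described here are among them. Because the values below come from the libraries that chose the genes, they are given as a description and carry no test.

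V16D is a castration-resistant prostate cancer line derived from LNCaP cells. Cells were transduced with an empty control lentivector (V16D/CTL) or with a lentivector that overexpressed H19 (V16D/H19), in 3 biological replicates per group, and both groups were grown in RPMI1640 with fetal bovine serum. Each replicate was immunoprecipitated for H3K4me3 and for H3K27me3, and a single input library per replicate served as the control for both marks, so that the folds of the 2 marks in a replicate share their denominator. H19 was driven by a vector, and whether the transduced cells were pools or clones is not given in the sources used here.

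H3K4me3 is placed by the MLL/SET1 methyltransferase complexes and marks the start sites of active or poised genes. H3K27me3 is placed by EZH2 within Polycomb repressive complex 2 and marks repressed genes, often over broad stretches. Promoters that carry both marks are called bivalent and are common at developmental genes. SYDE2 encodes a GTPase-activating protein of the synapse-defective family. NPR1 encodes the receptor guanylate cyclase that binds atrial and B-type natriuretic peptides and makes cyclic GMP. MIR200A encodes a member of the miR-200 family, which represses the transcription factors ZEB1 and ZEB2 and helps to keep the epithelial state. B4GALNT1 encodes the enzyme that adds N-acetylgalactosamine to GM3 and GD3, giving the gangliosides GM2 and GD2.

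MIR200A is transcribed from chromosome 1 together with MIR200B and MIR429, while MIR200C and MIR141 lie on chromosome 12. The mature sequences are shown to place miR-200a within the family, since the family falls into groups by the seed (bases 2 to 8, in capitals), the stretch that pairs with target messenger RNAs. They were taken from RefSeq (GRCh38.p14). The first pair shares the seed AACACUG, which 2 of the 2545 mature miRNAs in the reference table carry.
hsa-miR-200a-3p: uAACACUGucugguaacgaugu
hsa-miR-141-3p: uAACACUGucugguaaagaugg
The next 3 share the seed AAUACUG, which 3 of the 2545 carry.
hsa-miR-200b-3p: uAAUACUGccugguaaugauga
hsa-miR-200c-3p: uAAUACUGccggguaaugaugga
hsa-miR-429: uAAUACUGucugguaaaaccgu
The opposite arms of the hairpins of MIR200A and MIR200B share the seed AUCUUAC.
hsa-miR-200a-5p: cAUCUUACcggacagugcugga
hsa-miR-200b-5p: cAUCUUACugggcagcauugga
Counted base by base from the 5′ end over 22 positions, hsa-miR-200a-3p differed from hsa-miR-141-3p at 2 positions and from its cluster neighbours hsa-miR-200b-3p and hsa-miR-429 at 4 and 5 positions.

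The 300 bases from 250 before to 50 after the gene start are shown for SYDE2 and NPR1, because peaks of both marks lay there, and for MIR200BHG, the host transcript of MIR200B, MIR200A and MIR429, because the highest H3K4me3 peak assigned to MIR200A lay over its start or just after it. The sequences are from RefSeq (GRCh38.p14). In SYDE2 and NPR1 the dinucleotide CG is in capitals.
SYDE2, chr1:85200967-85201266, minus strand: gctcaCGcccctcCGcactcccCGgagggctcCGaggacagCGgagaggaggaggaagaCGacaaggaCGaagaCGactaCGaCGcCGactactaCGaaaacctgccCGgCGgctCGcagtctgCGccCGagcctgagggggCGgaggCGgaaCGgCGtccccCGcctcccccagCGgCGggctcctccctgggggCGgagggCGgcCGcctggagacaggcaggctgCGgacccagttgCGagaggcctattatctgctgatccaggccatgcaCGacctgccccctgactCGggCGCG
NPR1, chr1:153678438-153678737, plus strand: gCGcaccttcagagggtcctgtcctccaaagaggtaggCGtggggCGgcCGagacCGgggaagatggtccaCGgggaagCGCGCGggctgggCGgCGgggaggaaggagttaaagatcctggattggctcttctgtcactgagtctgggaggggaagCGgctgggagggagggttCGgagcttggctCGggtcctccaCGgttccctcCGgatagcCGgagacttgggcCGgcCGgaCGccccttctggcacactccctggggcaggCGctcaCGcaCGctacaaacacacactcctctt
In MIR200BHG the capitals mark CACCTG, which with its reverse complement CAGGTG is the E-box that ZEB1 and ZEB2 are known to bind.
MIR200BHG, chr1:1162627-1162926, plus strand: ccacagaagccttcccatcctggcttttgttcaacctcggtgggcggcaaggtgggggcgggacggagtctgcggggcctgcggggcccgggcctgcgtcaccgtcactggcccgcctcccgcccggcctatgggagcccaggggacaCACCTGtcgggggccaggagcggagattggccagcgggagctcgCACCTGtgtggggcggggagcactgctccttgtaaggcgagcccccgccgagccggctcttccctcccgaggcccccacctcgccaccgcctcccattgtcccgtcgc
SYDE2 held 33 CG dinucleotides in this window, NPR1 held 23 and MIR200BHG held 26, against a median of 14 over the 35116 promoters in the reference table. The number in SYDE2 was above that of 82.8% of promoters, that in MIR200BHG above 69.9% and that in NPR1 above 64.2%. The E-box, searched as CAGGTG and CACCTG so that both strands were read, was found 2 times in MIR200BHG, starting 102 and 58 bases before the gene start. No match was found in the windows of SYDE2 and NPR1. At least 1 match was present in 20.6% of all promoters and at least 2 in 3.49%.

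A listed site is a region that the authors' DiffBind comparison reported as differential, and its concentration is the authors' normalized read count in a group, averaged and on a log2 scale. Each concentration is the authors' mean over the 3 replicates, with no value per library. All 8 listed sites of the 4 genes were annotated to a promoter within 1 kb of a gene start. At the start of SYDE2 (chromosome 1, gene at 85152491 to 85201016, minus strand, hg38), the H3K4me3 site (85198250 to 85202587) had a concentration of 8.93 in V16D/CTL against 8.47 in V16D/H19, a difference of −0.46. The H3K27me3 site of SYDE2 (85198626 to 85202458) had 6.47 and 5.63, a difference of −0.84, which leaves 55.9% of the control level on a linear scale. SYDE2 had the highest H3K4me3 concentration of the 4 genes and the lowest H3K27me3 concentration in both groups. A concentration counts reads over the whole site, and the sites differed in width. The H3K27me3 site was 3.83 kb wide at SYDE2 and 15.4 kb wide at B4GALNT1. The order of the genes by concentration is therefore not an order of mark density.

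At NPR1 (chromosome 1, 153678688 to 153693992, plus strand), the H3K4me3 site (153678183 to 153679867) had a concentration of 6.25 in V16D/CTL against 5.36 in V16D/H19, a difference of −0.89, or 54.0% of the control level. The H3K27me3 site (153677888 to 153686879) had 6.79 and 5.94, a difference of −0.85, or 55.5%. NPR1 was the member with the lowest H3K4me3 concentration, over a site of 1.685 kb against 12.83 kb at MIR200A. Its 2 marks differed between the groups by nearly the same amount.

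At MIR200A (chromosome 1, 1167863 to 1167952, plus strand), the H3K4me3 site was 12.8 kb wide (1157478 to 1170307) and had a concentration of 7.32 in V16D/CTL against 6.83 in V16D/H19, a difference of −0.49. The H3K27me3 site (1166963 to 1173550) had 6.57 and 5.95, a difference of −0.62. At B4GALNT1 (chromosome 12, 57623409 to 57633201, minus strand), the H3K4me3 site (57631803 to 57633655) had 8.47 and 7.95, a difference of −0.52. The H3K27me3 site of B4GALNT1 was 15.4 kb wide (57618999 to 57634408) and had 6.70 and 6.12, a difference of −0.58.

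Lower concentrations were the common direction in both tables. Of the 1857 listed H3K4me3 sites, 1412 were lower in V16D/H19 and the median difference over all of them was −0.29, and of the 1140 listed H3K27me3 sites, 1043 were lower with a median of −0.57. All 8 sites of the 4 genes lay below these medians in signed difference, but the genes were chosen for lower values. Among the lower sites alone the medians were −0.37 for H3K4me3 and −0.6 for H3K27me3. The H3K27me3 site of B4GALNT1, at −0.58, lay above the second of these. Ranks of the 8 sites from the largest decrease ran from 229 of 1857 (NPR1) to 548 of 1857 (SYDE2) for H3K4me3. For H3K27me3 they ran from 236 of 1140 (NPR1) to 538 of 1140 (B4GALNT1). Among 13942 genes with an H3K4me3 site within 1 kb of their start, 8.24% were listed as lower and 2.5% as higher. For H3K27me3, 16.6% of 3274 such genes were listed as lower and 1.28% as higher. Nothing about the 4 genes is read from these medians, ranks and shares, because the same contrast chose them.

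Peaks of single libraries gave the positions of the marks. The choice of the genes required that the listed sites of the 2 marks shared bases, and so was not independent of these positions. At SYDE2 a single H3K4me3 peak spanned the gene start in all 6 libraries, from at most 1535 bases before to at most 1187 bases after it. H3K27me3 peaks lay over the same stretch in all 6 libraries, and within each library the 2 marks shared between 1158 and 2183 bases. In V16D/CTL the shared length was 1586, 2183 and 2118 bases (replicates 1, 2 and 3), and in V16D/H19 it was 1158, 1203 and 1181 bases. The 3 V16D/H19 libraries were all below the 3 V16D/CTL libraries, as they were in 32.9% of the 79 overlapping pairs of listed sites. H3K27me3 peaks covered the whole 300-base promoter window in 5 of 6 libraries, the exception holding no H3K27me3 peak base there.

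At NPR1 the H3K4me3 peak lay wholly inside an H3K27me3 peak in each of the 6 libraries. The H3K4me3 peak was 976, 832 and 889 bases long in V16D/CTL against 860, 559 and 758 bases in V16D/H19, and the shared length was the same number in each library. The gene start itself was under an H3K4me3 peak in 5 of 6 libraries, since the peak of V16D/H19 replicate 2 began 67 bases after it. All 6 H3K27me3 libraries covered the NPR1 promoter window completely.

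At MIR200A no H3K4me3 peak inside its listed site touched an H3K27me3 peak inside the other listed site, in any library. The H3K4me3 peaks of all 6 libraries fell into 2 places, between 10385 and 9802 bases and between 5352 and 3009 bases before the MIR200A hairpin. The second place is at the start of MIR200BHG, which lies 4986 bases before the hairpin. One end of the long non-coding RNA LOC107985736 (1146668 to 1162947), whose strand was not known here, lies there too. The first place is inside that RNA and inside the long non-coding RNA LOC124903820. The peak of the second place covered the start of MIR200BHG in 4 of 6 libraries and began just after it in V16D/H19 replicates 1 and 3. Inside the H3K27me3 site, peaks lay from 900 bases before to 5687 bases after the hairpin's start, over the 3 miRNA genes and the ground beyond them. The nearest peaks of the 2 marks inside these sites were 2111, 3901 and 2623 bases apart in V16D/CTL against 2240 and 4010 bases apart in V16D/H19 replicates 2 and 3. V16D/H19 replicate 1 had no H3K27me3 peak in the listed site. Outside it, V16D/H19 replicate 3 had a 610-base H3K27me3 peak over the start of MIR200BHG, which the other 5 libraries lacked and which shared 18 bases with the H3K4me3 peak of that replicate.

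The stretch that made the 2 listed sites of MIR200A overlap (1166963 to 1170307) held no H3K4me3 peak in any of the 6 libraries and an H3K27me3 peak in 5. Peaks of the 6 libraries together covered 22.8% of the H3K4me3 site of MIR200A, against a median of 93.8% over all listed H3K4me3 sites, and 1.88% of those sites had a smaller covered share. No H3K4me3 peak overlapped the hairpins of MIR200B, MIR200A or MIR429. The MIR200A hairpin was under an H3K27me3 peak in V16D/CTL replicate 3 alone, that of MIR200B in 1 V16D/CTL and 1 V16D/H19 library, and that of MIR429 in 3 V16D/CTL and 1 V16D/H19 libraries.

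At B4GALNT1 the 2 marks lay at opposite ends of the gene. The H3K4me3 peak spanned the gene start in all 6 libraries, from at most 454 bases before to at most 1314 bases after it. The H3K27me3 peaks lay between 7318 and 13774 bases after the gene start, at and beyond the 3′ end of the 9793-base gene, over the pseudogene SLC26A10P and the long non-coding RNA LOC101927583. The gap between the peaks of the 2 marks inside their listed sites was 7583, 8836 and 6182 bases in V16D/CTL against 7964, 10462 and 9603 bases in V16D/H19. The stretch shared by both listed sites, which covers the promoter, held an H3K4me3 peak in 6 libraries and an H3K27me3 peak in 0. Weak H3K4me3 peaks of 254 and 381 bases, with folds of 5.86 and 5.45, lay beyond the gene's 3′ end in V16D/H19 replicates 2 and 3 and in no other library, and that of replicate 3 lay wholly inside an H3K27me3 peak. The H3K27me3 peaks of all libraries covered 39.7% of the listed site of B4GALNT1 and 36.7% of that of NPR1, against a median of 95.2% over all listed H3K27me3 sites. How the authors built the regions that DiffBind counted is not given in the sources used here.

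**Figure D1:**
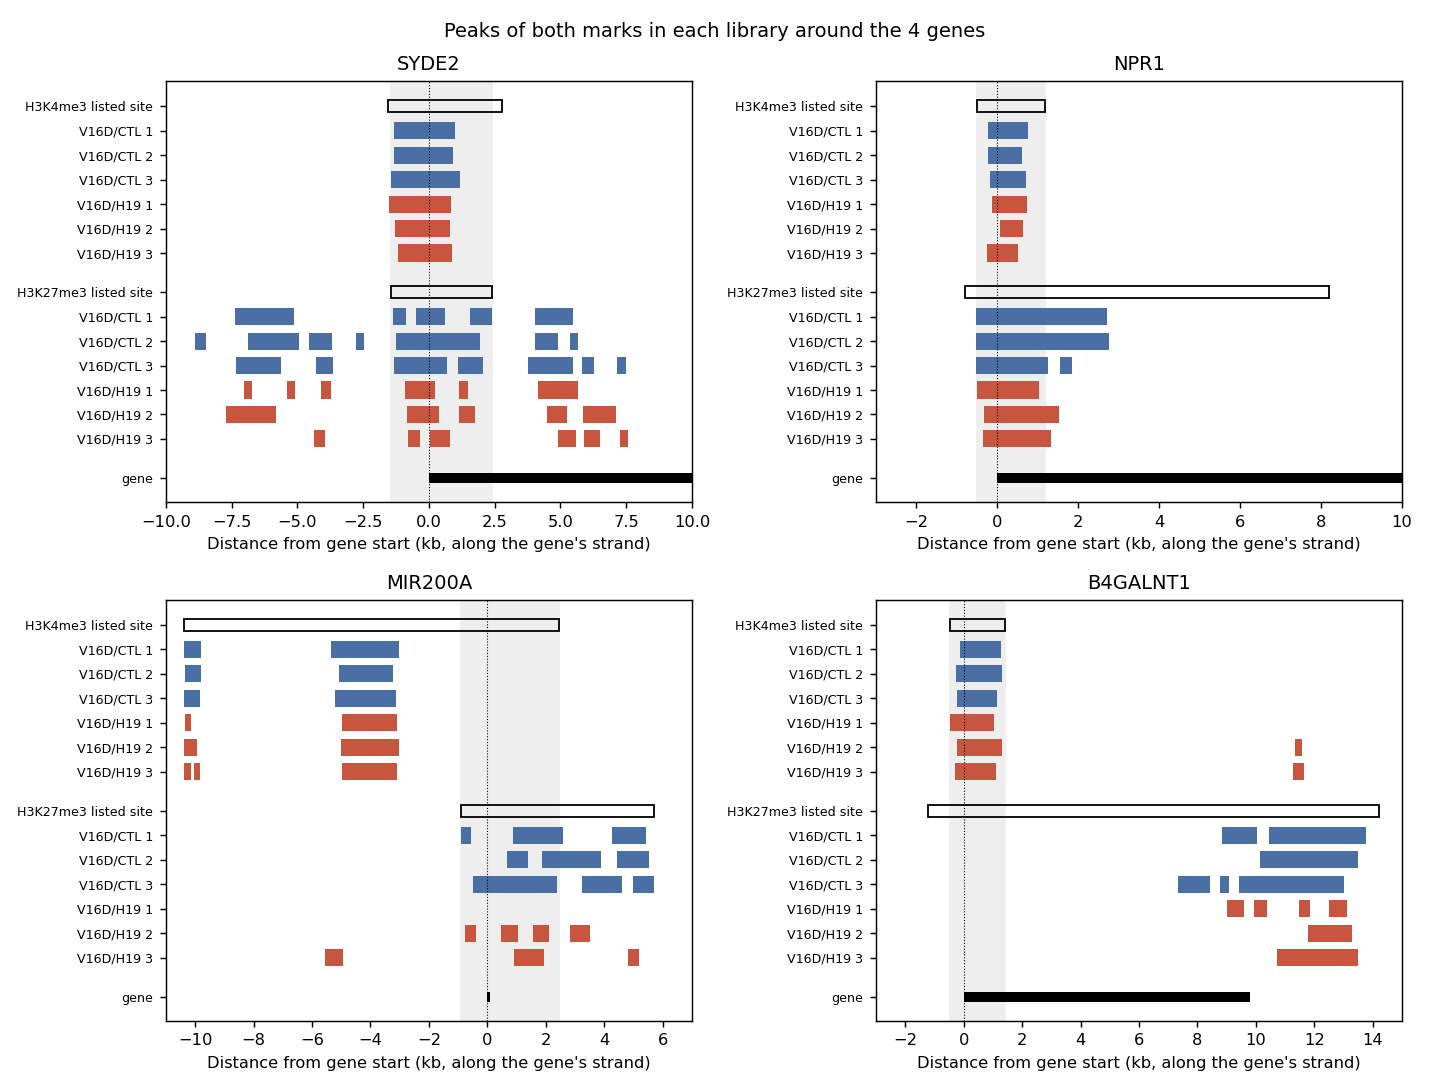
Peaks of each library by distance from the gene start in kb along the gene's strand, with 1 row per library (blue V16D/CTL, red V16D/H19), the listed sites as open boxes, the gene as a black bar and the stretch shared by both listed sites in grey. Peaks of both marks share bases in all 6 libraries at SYDE2 and NPR1 and in V16D/H19 replicate 3 alone at MIR200A (18 bases) and B4GALNT1 (381 bases), and the axes leave out the peaks at ILF2 upstream of NPR1 and 1 H3K27me3 peak deep inside SYDE2.

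The other overlapping pairs of listed sites place these 4 genes. Of the 79 pairs, 12 were lower in both marks, 64 were higher in H3K4me3 and lower in H3K27me3, and 3 were lower in H3K4me3 and higher in H3K27me3. In 3 of the 12 pairs (those of MIR200A, B4GALNT1 and NKX2-2) the shared stretch lacked a peak of 1 mark in every library, and the same held for 1 of the 64 pairs. Peaks of both marks shared bases in all 6 libraries in 3 of the 12 pairs (SYDE2, NPR1 and the pair annotated to HOXB9 and HOXB8) and in 32 of the 64. The difference between the 2 kinds of pairs was not tested.

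Other genes lower in both marks under the same symbol included NKX2-2 and SOX17, which encode developmental transcription factors, and GFY. Their H3K4me3 differences were −1.29 for NKX2-2, −1.45 for SOX17 and −2.75 for GFY, and their H3K27me3 differences were −0.58, −0.51 and −0.58 in the same order. A pair without a gene symbol had −3.07 and −0.42. The 3 pairs annotated to different symbols for the 2 marks were ALOXE3 with HES7 (−0.38 and −0.76), HOXB7 with HOXB8 (−0.62 and −0.54) and HOXB9 with HOXB8 (−0.59 and −0.54). The H3K4me3 differences of the 4 genes, −0.46 to −0.89, lay inside the range of the other pairs lower in both marks, −3.07 to −0.38. The pairs at −3.07 and −2.75 had low H3K4me3 concentrations in V16D/CTL, 3.61 and 3.74, against 6.25 to 8.93 at the 4 genes. Each of these pairs had an H3K4me3 peak in the shared stretch in 3 of 6 libraries.

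**Figure D2:**
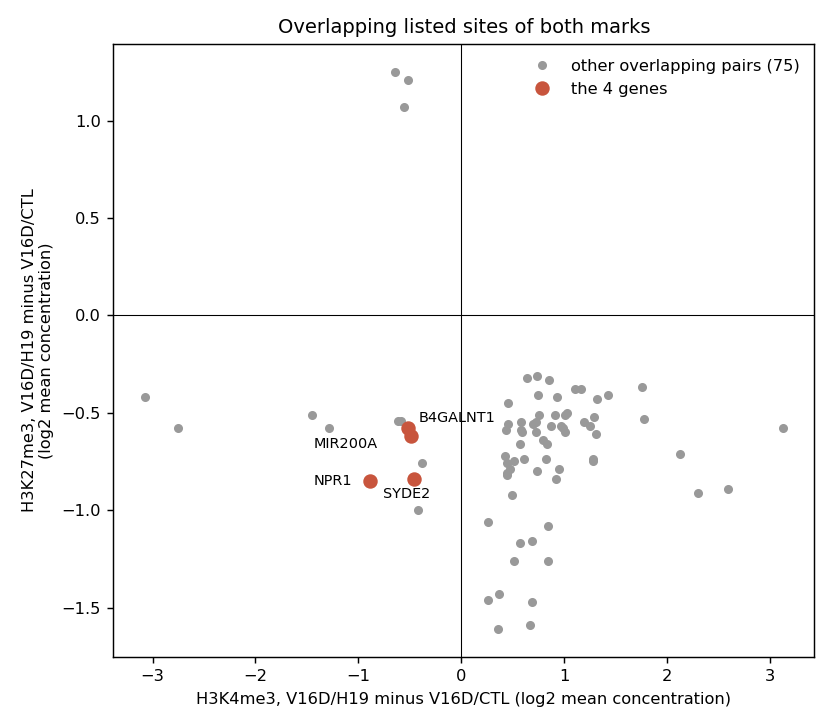
Difference of the authors' mean log2 concentrations, V16D/H19 minus V16D/CTL, for H3K4me3 (horizontal) and H3K27me3 (vertical) over the 79 overlapping pairs of listed sites, 1 point per pair. SYDE2, NPR1, MIR200A and B4GALNT1 are in red in the lower left, with 8 other pairs, and 64 pairs lie in the lower right.

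Likeness was measured as the Euclidean distance over the 4 mean concentrations (2 marks in 2 groups), in log2 units. The pair nearest to SYDE2 was that of B4GALNT1 at 0.88, and MECOM at 1.10 was also among its 3 nearest. Nearest to B4GALNT1 were PLXNA2 (0.72), MECOM (0.78) and SYDE2 (0.88). For NPR1 they were WDR17 (1.18), KIAA1549L (1.498) and ETV4 (1.62), and for MIR200A LINC00290 (0.93), TNFRSF11B (0.99) and FAM131B (1.01). All 6 neighbours of NPR1 and MIR200A, as well as PLXNA2 and MECOM, had a higher H3K4me3 concentration in V16D/H19, and SYDE2 and B4GALNT1 were the sole members found among each other's 3 nearest pairs.

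The fold over input in single libraries was taken as the highest fold among the peaks in a listed site. For H3K4me3 at SYDE2 it was 26.8, 18.5 and 28.6 in V16D/CTL against 19.5, 23.1 and 19.8 in V16D/H19, with means of 24.7 ± 5.37 and 20.8 ± 1.98 (SD, n = 3). The control replicate 2 lay below all V16D/H19 libraries, and the groups overlapped. At NPR1 the folds were 17.4, 7.20 and 11.8 in V16D/CTL against 7.61, 8.21 and 6.96 in V16D/H19, with means of 12.1 ± 5.09 and 7.59 ± 0.626 (SD, n = 3). Control replicates 1 and 3 stood above the rest and control replicate 2 lay among the V16D/H19 libraries. These peaks were weak for the mark: the fold at NPR1 exceeded that of 21.2% to 40.8% of the peaks in the same library.

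At MIR200A the highest H3K4me3 fold, in the peak at or just after the start of MIR200BHG, was 16.5, 13.5 and 12.9 in V16D/CTL against 8.34, 13.1 and 7.34 in V16D/H19, with means of 14.3 ± 1.92 and 9.58 ± 3.05 (SD, n = 3). V16D/H19 replicate 2 reached the level of control replicate 3, and the other V16D/H19 libraries lay below all controls. At B4GALNT1 the folds were 49.6, 36.2 and 22.95 in V16D/CTL against 31.9, 28.0 and 32.0 in V16D/H19, with means of 36.2 ± 13.3 and 30.6 ± 2.27 (SD, n = 3). The V16D/H19 libraries lay within the range of the controls, and without control replicate 1 the difference of the means turned from −5.59 to 1.08.

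The H3K27me3 folds were low in all libraries, as the peaks of this mark were in general (median fold per library 3.35 to 3.53). At SYDE2 they were 4.51, 3.67 and 4.34 in V16D/CTL against 3.68, 3.71 and 2.98 in V16D/H19. Control replicate 2 lay just below 2 of the V16D/H19 libraries. At NPR1 they were 4.33, 4.07 and 4.05 in V16D/CTL against 3.73, 3.35 and 3.997 in V16D/H19, and the groups did not overlap. At MIR200A they were 3.65, 3.92 and 4.03 in V16D/CTL, no peak, 3.74 and 3.70 in V16D/H19. At B4GALNT1 they were 4.21, 4.45 and 3.68 in V16D/CTL against 3.89, 4.09 and 3.59 in V16D/H19. At MIR200A and B4GALNT1 the groups overlapped.

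The mean of the highest fold was lower in V16D/H19 at all 8 sites, but the groups failed to overlap at 1 of 8, the H3K27me3 site of NPR1. Over all merged sites found in 2 or more libraries, the V16D/H19 values lay below all V16D/CTL values at 4.66% of 20708 H3K4me3 sites and 6.06% of 58789 H3K27me3 sites, and above them at 6.95% and 2.35%. Among the listed sites the shares below were 12.4% for H3K4me3 and 32.6% for H3K27me3. The count of 1 was 4 without V16D/CTL replicate 2 and 4 without V16D/CTL replicate 3, 2 without V16D/CTL replicate 1 and 2 without V16D/H19 replicate 2. Nothing is read from the member count against these shares, since the libraries chose the genes.

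**Figure D3:**
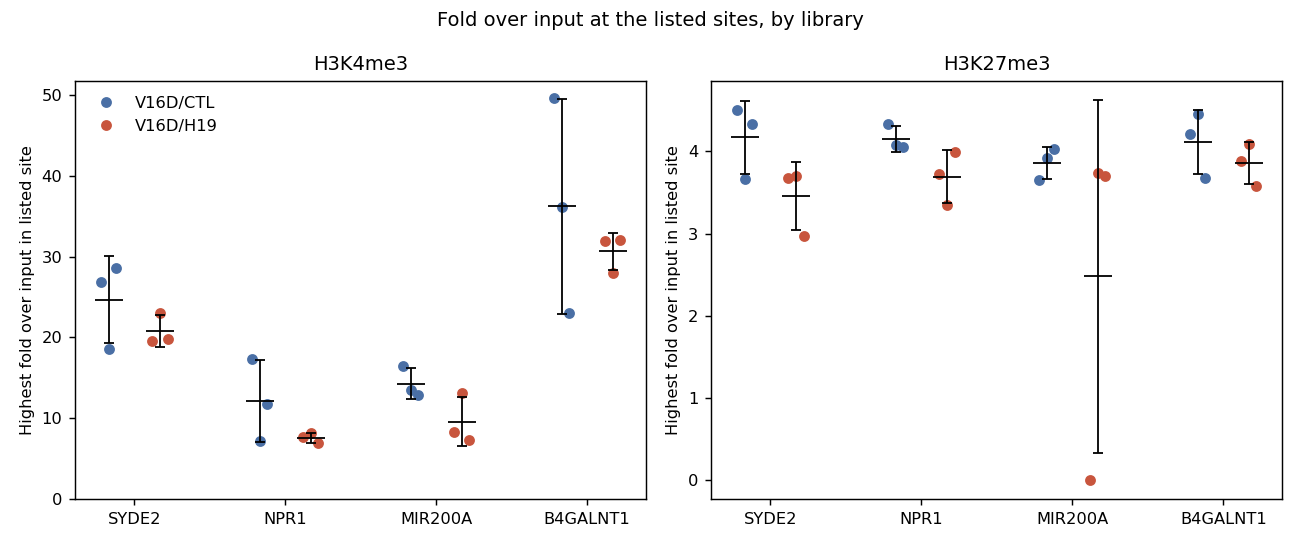
Highest fold over input (a ratio, vertical) among the peaks in each listed site, 1 point per library, with the mean and SD of the 3 replicates in black, for H3K4me3 (left) and H3K27me3 (right). The groups overlap at every site other than H3K27me3 at NPR1, and the point at 0 is V16D/H19 replicate 1 at MIR200A, which had no peak.

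The length under H3K27me3 peaks separated the groups more often than the height did. At SYDE2, H3K27me3 peaks covered 2444, 3198 and 2994 bases of the listed site in V16D/CTL against 1495, 1788 and 1181 bases in V16D/H19. At NPR1 they covered 3255, 3291 and 2075 bases in V16D/CTL against 1553, 1850 and 1694 bases in V16D/H19. At both genes every V16D/H19 library lay below every V16D/CTL library. At MIR200A the covered lengths were 3204, 3826 and 4979 bases in V16D/CTL against 0, 2191 and 1394 bases in V16D/H19. At B4GALNT1 they were 4528, 3334 and 5030 bases in V16D/CTL against 2026, 1510 and 2788 bases in V16D/H19. These groups did not overlap either, so that all 4 H3K27me3 sites and 0 of the 4 H3K4me3 sites were separated by covered length.

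The background for covered length was 7.45% of all H3K27me3 sites and 64.8% of the listed ones, and 5.88% of all H3K4me3 sites and 21.9% of the listed ones. Nothing is read from the member counts by covered length against these shares, since the libraries chose the genes. The H3K27me3 peak lists as a whole covered 45.1, 58.8 and 62.2 Mb in V16D/CTL and 42.3, 47.5 and 48.4 Mb in V16D/H19, with 55060 to 72289 peaks, and the part of this in the covered lengths at the 4 genes was not tested. The H3K4me3 lists covered 28.8 to 31.4 Mb with 20048 to 21934 peaks. For H3K4me3 the covered lengths at the 4 genes overlapped between groups, from 2064 to 2620 bases at SYDE2, 559 to 976 at NPR1, 2121 to 2905 at MIR200A and 1375 to 1573 at B4GALNT1, and at B4GALNT1 the mean was 28.3 bases greater in V16D/H19.

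**Figure D4:**
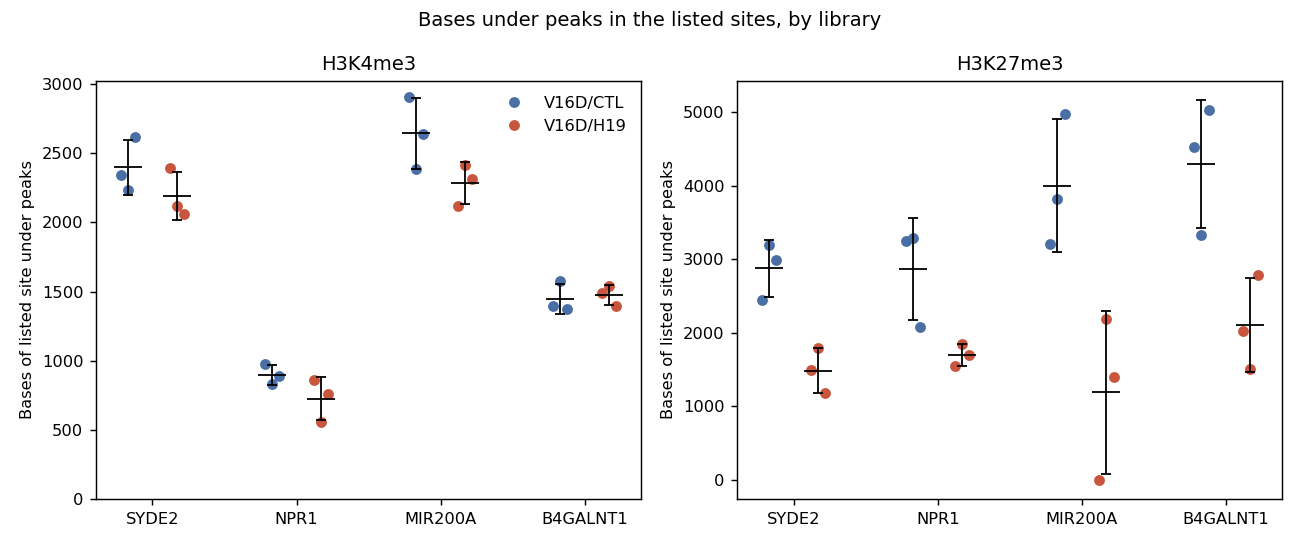
Bases of each listed site under peaks (vertical), 1 point per library, with the mean and SD of the 3 replicates in black, for H3K4me3 (left) and H3K27me3 (right). For H3K27me3 the V16D/H19 points lie below all V16D/CTL points at each of the 4 genes, and for H3K4me3 the groups overlap at each.

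The wider surroundings, from 10 kb upstream to the gene's end, held further peaks at SYDE2 and NPR1. Around SYDE2, 25 H3K27me3 peaks over the 6 libraries lay outside the listed site and 12 inside it. Those outside lay upstream of the gene, as far as 8885 bases, and inside it, as far as 18763 bases, and peaks inside and outside the site together covered 6128, 7957 and 7845 bases in V16D/CTL against 3977, 5664 and 3816 bases in V16D/H19. H3K4me3 around SYDE2 was confined to the promoter peak in each of the 6 libraries. Upstream of NPR1 there were 15 H3K4me3 peaks over the 6 libraries, against 6 in its listed site. Strong ones with folds of up to 79.2 lay at ILF2, which encodes a subunit of a double-stranded RNA-binding complex and starts 7695 bases before NPR1 on the opposite strand. No H3K27me3 peak lay in the window of NPR1 outside its listed site. Around MIR200A and B4GALNT1, beyond the listed site of the same mark, the surroundings held the H3K27me3 peak and the 2 H3K4me3 peaks already given. From 10 kb upstream to the gene's end, H3K27me3 peaks at MIR200A covered 335, 0 and 588 bases in V16D/CTL against 0, 385 and 610 in V16D/H19. At B4GALNT1 they covered 948, 0 and 1813 bases in V16D/CTL against 577, 0 and 0 in V16D/H19. In both of these windows the groups overlapped, unlike in the listed sites. No other gene had a listed site of either mark within 10 kb upstream of, or within, the 4 genes.

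Of the 36 other genes in 4 lists of partners of these genes, 28 had a known strand in the reference tables and so a start that could be examined. Of these, 18 had an H3K4me3 peak within 1 kb of the start in all 6 libraries and 4 had an H3K27me3 peak there in all 6. A listed H3K4me3 site lower in V16D/H19 was present for 4 of the 36 genes, and a higher one for 1 of these 4, while H3K27me3 was listed as lower for 1 and as higher for 0. Over all genes with a site of the mark at their start, 8.24% were listed as lower for H3K4me3 and 16.6% for H3K27me3. These shares do not have the 36 as their like base: 18 of the 36 had an H3K4me3 site at the start and 10 an H3K27me3 site. MME, listed as lower for H3K4me3, was not among the 18. Nothing is read from the counts against the shares. None of the 36 was listed for both marks.

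In the miR-200 group, MIR200C and MIR141 had an H3K4me3 peak near the start in all 6 libraries and no H3K27me3 peak, whereas MIR200B and MIR429 had no H3K4me3 peak within 1 kb. MIR200B had an H3K27me3 peak there in 2 V16D/CTL and 1 V16D/H19 libraries, and MIR429 in 3 and 2. TTLL10, beyond the cluster, had no H3K4me3 peak near its start and an H3K27me3 peak in 3 V16D/CTL and 1 V16D/H19 libraries. The miR-200 targets also differed in their marks: ZEB2 had H3K27me3 and no H3K4me3 peak at its start in 6 libraries, and ZEB1 had H3K4me3 in 6 libraries. At the same start of ZEB1 (31318417), an H3K27me3 peak was found in 0 V16D/CTL and 1 V16D/H19 libraries. Away from that start, ZEB1 had a listed H3K27me3 site (chromosome 10, 31383110 to 31386313), 1386 bases from another annotated start. Its concentrations were 5.01 in V16D/CTL against 3.48 in V16D/H19, a difference of −1.53.

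In the natriuretic peptide and cyclic GMP group, PDE9A, a phosphodiesterase that breaks down cyclic GMP, had 2 listed H3K4me3 sites, with differences of −0.27 at its promoter and −1.07 in an intron. MME, the neprilysin that degrades natriuretic peptides, had a listed H3K4me3 site at an annotated promoter with a difference of −0.29. NPPC (the C-type peptide), PRKG1 (a cyclic GMP-dependent kinase) and PDE5A had peaks of both marks within 1 kb of the start in all 6 libraries and no listed site. The sister receptors NPR2 and NPR3 had no peak of either mark there. Of these 3 receptors, NPR1 had peaks of both marks within 1 kb of its start in all 6 libraries. Only the RefSeq start of each gene was examined, so other promoters of NPR2 and NPR3 were not covered.

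In the ganglioside group no gene other than B4GALNT1 was listed. UGCG and B4GALT5, which make the glucosylceramide and lactosylceramide precursors, and ST3GAL5 and ST8SIA1, which make GM3 and GD3, had H3K4me3 peaks at the start in all 6 libraries. ST3GAL5 had an H3K27me3 peak there in 2 V16D/CTL and 0 V16D/H19 libraries. In the group of SYDE2, PPFIA2, a liprin scaffold of the synapse, had 3 listed H3K4me3 sites, with differences of −0.59 and −0.47 at annotated promoters and 1.54 in an intron, and RHOA, a small GTPase of the actin cytoskeleton, had a difference of −0.15. SYDE1, the paralogue of SYDE2, had H3K4me3 at its start in 6 libraries and H3K27me3 in 3 V16D/CTL and 0 V16D/H19 libraries, and had no listed site. The share of all gene starts with such a split of H3K27me3 peaks between the groups was not counted. Nothing is read from the splits at SYDE1 and ST3GAL5.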

How the data were processed

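Chromatin immunoprecipitation sequencing of H3K4me3 and H3K27me3 was analysed in 3 V16D/CTL and 3 V16D/H19 replicates, grouped by the sample titles. The authors called peaks per library with MACS2 against the input of the same replicate (narrow for H3K4me3, broad for H3K27me3; genome hg38, the aligner is not given in the sources used here). Each of the 12 deposited lists gives per peak a linear ratio, the fold over input, together with −log10 p-values and −log10 q-values. The 2 tables deposited by the authors, made with DiffBind and annotated with ChIPseeker, give log2 mean concentrations per group, and their fold change, p-value and FDR columns were not used. The 6 input libraries entered as the authors' peak-calling controls. Read depth per library was not in these files, so no counting interval is given.

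The members and gene lists were chosen with earlier results of these data known. Starts were converted to 1-based positions. For each listed site, the highest fold among peaks sharing at least 1 base was taken per library, with 0 where there was no peak, and means and SDs over 3 replicates were computed. Background sites were peaks of the 6 lists of a mark merged on at least 1 shared base and present in at least 2 libraries. Gene starts came from RefSeq (GRCh38.p14), of whose 59675 genes 29759 had a strand in the tables used. The genes named were the 4 members, the other pairs lower in both marks, the 3 nearest pairs of each member, genes of the 4 lists with a listed site, and genes in the members' surroundings; genes of the lists named for their peaks alone were chosen after their values were seen. 1 gene that this rule names is not reported here. No test was run. The counting code was tested on simulated peaks. Python 3.11.15, numpy 2.4.6, pandas 2.3.3 and matplotlib 3.10.9 were used.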

Additional observations from a re-analysis of the deposited data

How the results depend on the processing

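No paired analysis was possible because the same libraries chose the 4 genes, so no test, paired or unpaired, was run on them. Of the 88 differences of mean highest fold recomputed under alternatives, 86 moved by less than 1 SD between replicates. Several alternatives could not move the H3K4me3 values at SYDE2, NPR1 and B4GALNT1, where the listed site held 1 peak per library. The sign was lost in 5 of the 88. These were the H3K27me3 differences at the 4 genes under the q limit and H3K4me3 at B4GALNT1 without V16D/CTL replicate 1. A move of less than 1 SD therefore did not mean an unchanged result. With peaks of −log10 q of at least 5 alone, no H3K27me3 peak remained at the 4 genes, so that the H3K27me3 differences became 0 in fold and in covered bases. The number of the 8 sites whose groups did not overlap in fold went from 1 to 0 with this limit. By bases covered, without the limit, that number was 4. Leaving out 1 library at a time gave −6.94 to −1.90 for H3K4me3 at SYDE2, −6.96 to −1.88 at NPR1, −6.44 to −3.58 at MIR200A and −12.2 to 1.08 at B4GALNT1, and −0.971 to −0.481, −0.610 to −0.288, −2.01 to −0.145 and −0.477 to −0.0924 for H3K27me3 in the same order, with 1 to 4 sites not overlapping. With 2 kb instead of 10 kb upstream, the difference in bases under H3K27me3 around SYDE2 was −1211 instead of −2824, and that under H3K4me3 around MIR200A was 0 instead of −280. The share of H3K27me3 sites with V16D/H19 below V16D/CTL was 10.7% for sites found in 5 or more libraries and 23.3% with the q limit, and the share above was 0.199% with the q limit. The causes were not tested. Groups of 3 limit the precision of each value.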
